A study of Mus musculus with 12 samples.

Results

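The genes followed were 6 genes of Schwann cells, the glia of peripheral nerve, and of the myelin they form: Pmp22, Prx, Sox10, S100b, Ngfr and Erbb3. A gene was taken at the probe set that the platform table lists with its symbol alone, and at the brighter one where there were several. This gave 5 of the 6 genes, each with 1 probe set, of 16244 genes in all, and Prx was not analysed here. RNA came from the adrenal gland of male C57Bl/6J mice at 21 weeks of age and was read on 12 arrays in 4 groups. Control mice (CON) had neither agent. The CGP group had CGP 39551, a competitive blocker of the NMDA-type glutamate receptor, from conception to postnatal day 28. It was given in the drinking water of the dams, at 5 mg per kg of dam weight. The ASP group had the sweetener aspartame at 46 mg per kg, begun before birth through the dam. Aspartame went on in the drinking water of the offspring until the end of the study. The ASP+CGP group had both agents. All groups had the same strain, chow and housing. The RNA of the mice of a group was mixed in equal amounts into 1 pool, and each pool was put on 3 arrays, so that the errors and p-values below come from repeat arrays of 1 pool, and variation between mice was not measured. Values are log2 signals on which 1 unit is a 2-fold difference, and a gene was called when its limma adjusted p was under 0.05 and its difference at least 1.4-fold (0.485 log2 units).

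Schwann cells wrap peripheral axons. Some form myelin, others hold bundles of thin axons without it, and in the adrenal medulla such cells lie along the nerve fibres that reach the chromaffin cells. They arise from the neural crest under SOX10, a transcription factor they keep for life, and they need neuregulin from the axon, read by the receptor pair ERBB2 and ERBB3. S100B is a calcium-binding protein of their cytoplasm, NGFR is the low-affinity receptor of the neurotrophins and is high in cells without myelin, and PMP22 is a membrane protein of compact peripheral myelin. None of these genes is made by Schwann cells alone. SOX10 and S100B are also made by the oligodendrocytes of the brain, S100B by astrocytes, PMP22 by fibroblasts and many epithelia, ERBB3 by epithelia and hepatocytes, and NGFR by some neurons and stromal cells. In whole tissue, fewer cells of a type and less RNA per cell cannot be told apart.

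The 5 genes did not move as a group. In ASP, Sox10 and S100b rose above CON while the other 3 were not called, a count of 2 of 5 where 9.81% of the 15900 genes tested were called higher and 8.13% lower. In CGP, limma called 0 of the 5, where 1.62% of all genes were called higher and 0.0189% lower, and 1 of the 5 (Erbb3) had an unadjusted p under 0.05. Ordinary least squares without moderation also called 0. In ASP+CGP against CON, 1 of the 5 fell (Erbb3), where 6.09% of all genes were called higher and 8.32% lower. That call was lost after centring on array medians and after cyclic loess, where Sox10 and Ngfr were called higher instead. From ASP to ASP+CGP, 3 of the 5 were lower (Sox10, S100b and Erbb3), where 6.55% of all genes were called higher and 13.3% lower. The interaction (the aspartame difference in the presence of CGP 39551, less that in its absence) was called negative for the same 3 genes, where 9.02% of all genes were called positive and 15.5% negative. On the adjusted p alone, at any fold, 3 of the 5 passed in ASP, where 55.3% of all genes did, and 0 in CGP, where 3.01% did. All 5 passed in ASP+CGP against CON (72.7% of all genes), against ASP (63.1%) and for the interaction (51.4%). The median difference of the 5 genes was 0.20 in ASP, 0.01 in CGP and 0.43 in ASP+CGP, and that of all genes tested was -0.10, 0.000023 and -0.17. These comparisons share the CON or the ASP arrays.

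**Figure D1:**
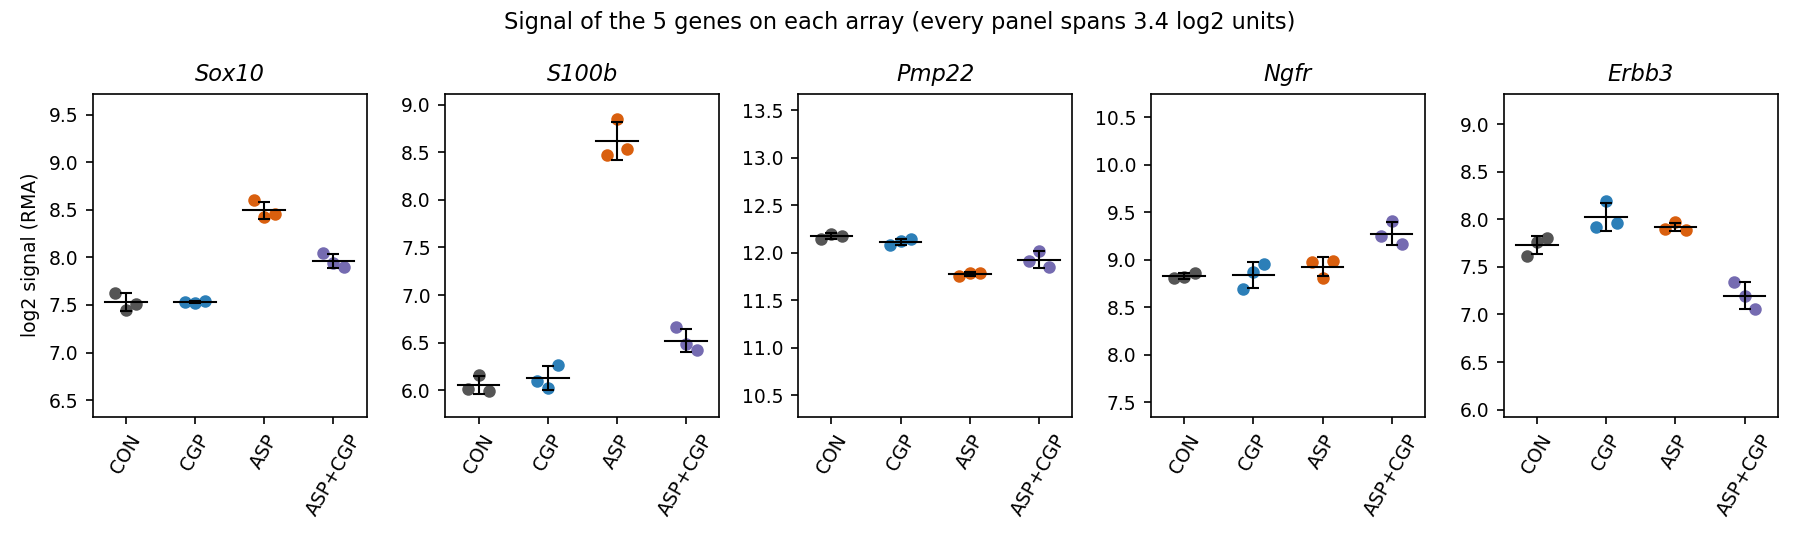
Log2 signal of each of the 5 genes (vertical axis, every panel spanning the same number of log2 units) on the 12 arrays, by group (horizontal axis). Points are arrays, long lines group means and bars 1 SD over the 3 arrays of a pool. Sox10 and S100b stand highest in ASP and next in ASP+CGP, Pmp22 lowest in ASP, Ngfr highest and Erbb3 lowest in ASP+CGP.

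**Figure D2:**
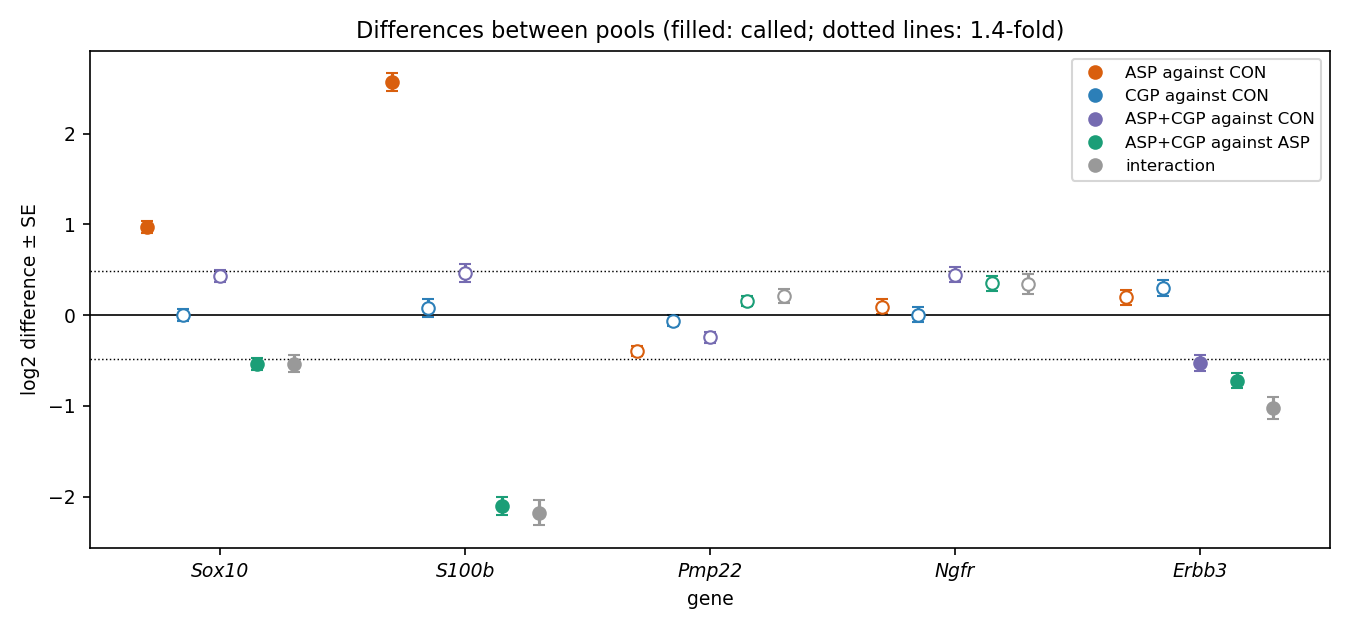
Log2 difference (vertical axis) with its standard error for each gene (horizontal axis) in the 4 pairwise comparisons and the interaction. Filled points were called and open points were not, and dotted lines mark 1.4-fold. S100b in ASP, at 2.57, has the largest difference, and the points of CGP against CON are all open.

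The array measures transcript level and not where a transcript starts, so the DNA before the start sites is given here as reference. RefSeq windows of the mouse build GRCm38.p6, the 250 bases before each start, matched 3 of the 5 genes: S100b, Pmp22 and Ngfr. Sox10 and Erbb3 had no entry in the table used here. Capitals mark CpG dinucleotides, the sites of DNA methylation in mammals. The windows of S100b (chr10:76253586-76253835, plus strand), Ngfr (chr11:95587699-95587948, minus strand) and starts 1 and 3 of the 4 listed for Pmp22 (chr11:63128732-63128981 and chr11:63132319-63132568, plus strand) are shown, since these 3 genes had 3 different patterns over the pools.
S100b: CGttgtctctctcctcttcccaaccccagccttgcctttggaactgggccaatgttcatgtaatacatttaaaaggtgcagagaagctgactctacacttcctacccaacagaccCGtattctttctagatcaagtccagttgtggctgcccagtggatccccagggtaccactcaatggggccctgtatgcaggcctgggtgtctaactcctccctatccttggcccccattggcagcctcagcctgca
Ngfr: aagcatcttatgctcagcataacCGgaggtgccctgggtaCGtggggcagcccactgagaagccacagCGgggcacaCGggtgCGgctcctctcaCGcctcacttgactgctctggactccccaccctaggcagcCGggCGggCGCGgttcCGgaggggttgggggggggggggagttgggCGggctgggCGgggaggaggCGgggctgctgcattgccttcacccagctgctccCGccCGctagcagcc
Pmp22 start 1: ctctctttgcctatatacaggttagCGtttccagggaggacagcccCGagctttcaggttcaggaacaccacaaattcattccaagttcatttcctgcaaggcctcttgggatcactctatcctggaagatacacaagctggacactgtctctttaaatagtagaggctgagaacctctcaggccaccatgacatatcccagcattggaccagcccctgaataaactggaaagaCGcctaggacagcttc
Pmp22 start 3: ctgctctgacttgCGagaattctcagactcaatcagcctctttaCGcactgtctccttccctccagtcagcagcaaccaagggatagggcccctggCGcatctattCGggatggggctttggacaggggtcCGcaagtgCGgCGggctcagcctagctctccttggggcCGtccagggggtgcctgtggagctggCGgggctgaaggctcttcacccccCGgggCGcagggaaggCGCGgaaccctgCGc
The window of S100b held 2 CpG and that of Ngfr 16, against a median of 6 over 32851 windows of the same length. The window at start 1 of Pmp22 held 3 CpG and that at start 3 held 14, and those at starts 2 and 4, not shown, held 14 and 27. Pmp22 is known to be read from several promoters, of which 1 is used mainly by myelinating Schwann cells, and its single probe set did not separate them. The core letters bound by SOX factors, searched as ACAAAG and ACAATG on both strands, were in 0 of the 6 windows of these 3 genes and in 25.2% of all windows. The 2 motifs were counted apart, at 16.5% and 10.7% of windows.

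Sox10, the transcription factor of the Schwann cell and oligodendrocyte lineages (probe set 10430458), rose in ASP. Its signal was 7.63, 7.45 and 7.51 on the CON arrays, 7.53, 7.52 and 7.54 on the CGP arrays, 8.60, 8.43 and 8.46 on the ASP arrays and 8.05, 7.94 and 7.90 on the ASP+CGP arrays. CON and CGP overlapped, the ASP+CGP arrays lay above both, and the ASP arrays lay above all others. The rise in ASP was 1.96-fold (log2 difference 0.97 ± 0.07 SE, n = 3 arrays per pool, limma adjusted p = 1.18e-08), and Sox10 ranked 810 of 15900 genes by it. Genes of the same CON signal, between 7 and 8, had a median difference of -0.08. ASP+CGP stood 1.35-fold above CON (0.43 ± 0.07, limma adjusted p = 8.15e-05), short of the fold minimum, and at 0.689 of the ASP level (-0.54 ± 0.07, limma adjusted p = 8.45e-06). The interaction was -0.54 ± 0.09 (limma adjusted p = 0.000315). CGP differed from CON by 0.00 ± 0.07, with a 95% interval of -0.14 to 0.14. Array scaling moved 3 of these calls across the fold minimum. Sox10 was called higher in ASP+CGP than in CON after centring on array medians (0.50), cyclic loess (0.54) and quantile normalization (0.50), it was no longer called against ASP after quantile normalization (-0.46) or without ASP replicate 1 (-0.48, just inside the minimum), and its interaction was not called after centring (-0.48) or quantile normalization (-0.47).

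Of 12 tested partners and relatives of SOX10, 3 rose in ASP and 2 fell, with a median of -0.07. The 3 that rose are related SOX factors that are also made by brain glia and their precursors: Sox2, whose CON signal was below 6, at least 3.75-fold, Sox9 2.08-fold and Sox8 1.94-fold. The 2 that fell were Nab1 and Nab2, which bind the EGR factors of the myelin programme, at 0.669 and 0.667 of CON. In ASP+CGP the list had 1 gene called higher, Pax3, a neural crest factor (1.42-fold), and 2 called lower, Zeb2, a regulator of Schwann cell maturation (0.629), and Nab1 (0.666). The 2 falls in ASP were not called after cyclic loess, and in ASP+CGP the count of 1 higher became 0 after cyclic loess, after quantile normalization, with array weights, with the dim filter at 7 and without CON replicate 3, 3 after centring and 2 without ASP+CGP replicate 2, while both falls were lost after cyclic loess and quantile normalization (1 of them without ASP+CGP replicate 1). From ASP to ASP+CGP Sox9 went to 0.498 of ASP, and Sox2, below 6 again, was at least 3.75-fold lower.

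S100b, the calcium-binding protein of Schwann cells and astrocytes (probe set 10364149, Entrez 20203), had the largest rise of the 5 genes in ASP. Its signal was 6.01, 6.16 and 5.99 in CON, 6.10, 6.02 and 6.26 in CGP, 8.47, 8.85 and 8.54 in ASP, and 6.66, 6.48 and 6.42 in ASP+CGP. The CON and CGP arrays overlapped close to 6, the ASP+CGP arrays lay just above them, and the ASP arrays lay far above every other array. The ASP level was 5.92-fold that of CON (2.57 ± 0.10, limma adjusted p = 1.33e-11), rank 106 of 15900. ASP+CGP was at 0.233 of ASP (-2.10 ± 0.10, limma adjusted p = 1.34e-10), and the interaction was -2.18 ± 0.14 (limma adjusted p = 9.95e-09). ASP+CGP stood 1.38-fold above CON (0.47 ± 0.10, limma adjusted p = 0.000848), under the fold minimum. Of that comparison, the 3173 genes with a CON signal between 6 and 7 had a median difference of 0.25, so dim genes as a class read higher on the ASP+CGP arrays, whose interquartile ranges were 2.20 to 2.29 against 2.58 to 2.62 in CON. The S100b difference passed the fold minimum after centring (0.53), without CON replicate 2 (0.52) and without ASP+CGP replicate 2 (0.49) or 3 (0.52).

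Pmp22, the compact myelin protein gene (probe set 10376950), moved the other way. Its signal was 12.14, 12.20 and 12.18 in CON, 12.08, 12.12 and 12.14 in CGP, 11.75, 11.79 and 11.79 in ASP, and 11.91, 12.02 and 11.85 in ASP+CGP. CON and CGP overlapped, every ASP+CGP array lay below them, and the ASP arrays were lowest of all. ASP was at 0.758 of CON (-0.40 ± 0.06, limma adjusted p = 2.93e-05) and ASP+CGP at 0.843 (-0.25 ± 0.06, limma adjusted p = 0.00147), both short of 1.4-fold. Genes as bright as Pmp22 in CON had median differences of -0.15 in both comparisons. ASP+CGP was 0.15 ± 0.06 above ASP (limma adjusted p = 0.0286), and the interaction was 0.21 ± 0.08 (limma adjusted p = 0.0371). After cyclic loess the ASP+CGP difference from CON was -0.09 with a limma adjusted p of 0.148. Fibroblasts also make Pmp22, and of 11 fibroblast and nerve sheath markers 2 fell in ASP, the collagen cross-linking enzyme gene Loxl1 (0.685 of CON) and the collagen gene Col1a2 (0.714), with a list median of -0.32. The count of 2 became 0 after cyclic loess and 1 after the other scalings and without CON replicate 2 or 3 or ASP replicate 1 or 3. The summed linear signal of the 11 was 7597 to 7940 on the CON arrays and 6144 to 6220 on the ASP arrays. The fibroblast list was not called in ASP+CGP for any of its 11 genes, with a median of -0.13. Markers of endothelial, chromaffin and cortex cells also had negative medians, -0.43, -0.42 and -0.23 in ASP and -0.37, -0.21 and -0.09 in ASP+CGP. Those of neurons, astrocytes and oligodendrocytes had positive medians in ASP (1.88, 1.95 and 1.78). The part of any of these lists in the Pmp22 values was not tested.

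Ngfr, the low-affinity neurotrophin receptor (probe set 10390175, Entrez 18053), stood highest in ASP+CGP. The CON arrays read 8.81, 8.82 and 8.86, the CGP arrays 8.69, 8.87 and 8.96, the ASP arrays 8.98, 8.81 and 8.99, and the ASP+CGP arrays 9.25, 9.41 and 9.17. CON, CGP and ASP overlapped with each other, and all 3 ASP+CGP arrays lay above them. The ASP+CGP level was 1.36-fold that of CON (0.44 ± 0.08, limma adjusted p = 0.000283) and 1.27-fold that of ASP (0.35 ± 0.08, limma adjusted p = 0.00181), and the interaction was 0.34 ± 0.11 (limma adjusted p = 0.0214). None of these reached the fold minimum. Genes of the same CON signal, between 8 and 9, had a median of -0.26 in ASP+CGP. Against CON, Ngfr was called after centring (0.51), cyclic loess (0.74), quantile normalization (0.68) and without ASP+CGP replicate 3 (0.50). After quantile normalization it was also called against ASP (0.56) and for the interaction (0.57). ASP differed from CON by 0.09 ± 0.08 (limma adjusted p = 0.342, 95% interval -0.08 to 0.27) and CGP by 0.01 ± 0.08 (limma adjusted p = 0.995, 95% interval -0.17 to 0.18).

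The ligands and partner receptors of NGFR had another order. Of 10 tested, 4 rose in ASP with a list median of 0.42: Ntrk2, the BDNF receptor of neurons and astrocytes (5.02-fold), Lingo1, which joins NGFR in the Nogo receptor complex (4.62-fold), Ntrk3, the receptor of neurotrophin 3 (2.38-fold), and Sort1, which binds proneurotrophins with NGFR (1.55-fold). In ASP+CGP, Ntrk2, Lingo1 and Ntrk3 were back near CON, at 1.05-fold, 1.12-fold and 0.970-fold (not called), and Sort1 was at 0.770 of CON (limma adjusted p = 0.000229), short of the fold minimum. From ASP to ASP+CGP 6 of the 10 fell, where Ngfr read higher. The 1 partner called higher in ASP+CGP was Ntf5, neurotrophin 4/5, which was below 6 in CON and at least 1.34-fold higher here, and was not called after cyclic loess, quantile normalization, with the dim filter at 7 or without CON replicate 3.

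Erbb3, the neuregulin receptor that Schwann cells depend on (probe set 10373467), was the 1 gene of the 5 called lower than CON at 1.4-fold. It read 7.62, 7.76 and 7.80 in CON, 7.92, 8.19 and 7.96 in CGP, 7.90, 7.97 and 7.89 in ASP, and 7.34, 7.19 and 7.06 in ASP+CGP. Every ASP+CGP array lay below every other array, and the CGP and ASP arrays overlapped with each other and lay above CON. ASP+CGP was at 0.693 of CON (-0.53 ± 0.08, limma adjusted p = 0.000105) and at 0.605 of ASP (-0.72 ± 0.08, limma adjusted p = 4.31e-06). The interaction was -1.02 ± 0.12 (limma adjusted p = 6.5e-06). With either agent alone Erbb3 was not called: CGP was 0.30 ± 0.08 above CON (limma adjusted p = 0.0829, rank 436 of 15900) and ASP 0.20 ± 0.08 (limma adjusted p = 0.0589). The call against CON was lost after centring (-0.46), cyclic loess (-0.46) and without ASP+CGP replicate 3 (-0.46), and that against ASP and the interaction were called under each of these.

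Of the 7 neuregulins and ERBB receptors tested, 2 fell with Erbb3 in ASP+CGP, Nrg3, a neuregulin of neurons that binds ERBB4 (0.651 of CON), and Egfr, the receptor of epidermal growth factor (0.661), with a list median of 0.08, and neither was called after cyclic loess. Erbb2, the partner that Erbb3 needs to signal, was 1.07-fold CON (limma adjusted p = 0.29) and Nrg1, the main axonal ligand, 1.06-fold (limma adjusted p = 0.28). In ASP 1 of the 7 rose, Erbb4, the neuregulin receptor of neurons and other brain cells, at 3.64-fold (2 of the 7 after cyclic loess), and it was at 0.316 of that level in ASP+CGP. Hepatocytes make Erbb3 and Egfr, and markers of hepatocytes moved as well: of 13 tested, 10 rose in CGP, 11 fell in ASP and 13 fell in ASP+CGP. Their summed linear signal was 37175 to 38382 in CON, 54060 to 55646 in CGP, 20463 to 20598 in ASP and 14946 to 16137 in ASP+CGP. By pool means, both the hepatocyte list and Erbb3 were above CON in CGP and lowest in ASP+CGP. In ASP the list was below CON and Erbb3 was not. The part of these markers in the Erbb3 values was not tested.

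The other Schwann cell genes followed neither Sox10 nor S100b as a list. Of 13 tested genes that are made by Schwann cells or lie in peripheral myelin and are little made by oligodendrocytes, 1 rose in ASP, and the median was -0.14 beside -0.10 for all genes. The gene that rose was Drp2, a dystroglycan partner of the outer Schwann cell membrane, 3.67-fold from a signal of 6.11 to 7.99 (1.88 ± 0.08, limma adjusted p = 5.6e-11). Drp2 stood at 6.12 in CGP and 6.23 in ASP+CGP, so it was highest in ASP, as the oligodendrocyte, astrocyte and neuron lists were. Which cells gave the Drp2 signal was not tested. The next largest differences were not called: Gldn, a nodal adhesion protein, was at 0.767 of CON, Scn7a, a sodium channel gene of Schwann cells, at 0.772, and Pou3f1, a factor of the promyelinating stage, at 1.29-fold. Egr2, the master factor of peripheral myelination, was at 0.807 of CON (limma adjusted p = 0.0048), also under the fold minimum. The summed linear signal of the 13 was 2307 to 2336 on the CON arrays, 2442 to 2525 on the CGP arrays, 2253 to 2356 on the ASP arrays and 2323 to 2340 on the ASP+CGP arrays. The CGP arrays lay above the others, which overlapped, and none of the 13 was called in CGP at the 1.4-fold minimum (1 at adjusted p alone). In ASP+CGP 2 of the 13 were called higher, Cldn19, a tight junction protein of myelinating Schwann cells (1.46-fold), and Sostdc1, a secreted BMP and WNT antagonist (1.44-fold). Both had CON signals between 6 and 7, the dim class that read 0.25 higher, and the count was 0 after cyclic loess and after quantile normalization and 1 with the dim filter at 7. From ASP to ASP+CGP 2 of the 13 were called higher, Dhh (1.49-fold) and Cldn19 (1.48-fold). Dhh is the hedgehog ligand that Schwann cells send to the perineurium. Both had ASP signals between 6 and 7, a class with a median difference of 0.26 in that comparison. The count was 0 after cyclic loess and 1 after quantile normalization. Drp2 went to 0.296 of ASP.

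Myelin genes that both central and peripheral glia use moved with Sox10 and S100b. Of 12 tested, 9 rose in ASP with a median of 1.59. Mag, an adhesion protein at the inner face of myelin, was 11.5-fold higher, Mbp, which compacts the membrane from its cytoplasmic side, 11.3-fold, Fa2h, which hydroxylates myelin lipids, no less than 5.08-fold (below 6 in CON), and Cntn2, of the juxtaparanode, 4.65-fold. The 3 that were not called in ASP were Gal3st1, Gjb1 and Cd9. In CGP 1 of the 12 was called higher, Gjb1 (1.45-fold, limma adjusted p = 0.00149). In ASP+CGP 2 of the 12 were above CON, Fa2h at least 1.48-fold and Cntn2 1.57-fold (4 of the 12 after centring on array medians), and 9 of the 12 fell from ASP to ASP+CGP.

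All 15 markers of oligodendrocytes, which form central myelin and express Sox10, rose in ASP, with a median of 1.78. Mobp was 17.8-fold, Gjc3 10.8-fold, Olig1 8.27-fold and Mog 7.15-fold higher. In CON 4 of the 15 had a mean signal under 6 (Opalin, Olig2, Nkx2-2 and Ermn). Their summed linear signal was 1539 to 1556 in CON, 6742 to 7224 in ASP and 1784 to 2025 in ASP+CGP. There 2 were called higher, a count that was 1 after cyclic loess or quantile normalization, 4 with array weights, 6 after centring and 7 without ASP+CGP replicate 2. Of 13 astrocyte markers 11 rose in ASP (median 1.95, summed signal 8061 to 8281 in CON and 21008 to 22492 in ASP), and all 15 neuron markers rose (median 1.88, 10049 to 10443 in CON and 35074 to 36572 in ASP). In ASP+CGP the ranges were 6353 to 6729 for astrocytes and 8402 to 9485 for neurons, both below CON. Such sums rest mostly on the brightest genes, on the astrocyte list Acsbg1 (11.94 in CON). By gene, 1 astrocyte marker was called higher than CON, Ntsr2 (1.47-fold), and 2 lower, Agt (0.489 of CON) and Aldh1l1 (0.625), with a median of -0.07. In CGP 2 astrocyte markers were called higher, Slc1a2 (1.41-fold) and Agt (1.41-fold). On the neuron list 2 markers were called higher, Nefl (1.68-fold) and Gap43 (1.42-fold), with a median of -0.01. The neuron count was 1 after cyclic loess or quantile normalization, with array weights and without CON replicate 1 or 3 or ASP+CGP replicate 2, and after quantile normalization the astrocyte counts were 0 and 1. So in ASP Sox10 and S100b moved with the genes of brain glia and of neurons alike, and the part of these markers in the Sox10 and S100b values was not tested. The defining markers of the gland itself stayed bright, with Th, the catecholamine enzyme of chromaffin cells, at 13.39 in CON and 12.97 in ASP and Star, the cholesterol carrier of the cortex, at 13.64 and 13.41. Of 11 chromaffin markers 4 fell in ASP (median -0.42, summed signal 48497 to 49259 in CON and 37877 to 38694 in ASP). Of 10 endothelial markers 5 fell in ASP (median -0.43), of 10 cortex markers 3 (median -0.23) and of 9 adipocyte markers 1 (median -0.15), and after cyclic loess these counts were 1, 1 and 0. The adipocyte count was also 0 after centring, with the dim filter at 7 and without CON replicate 2 or 3.

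**Figure D3:**
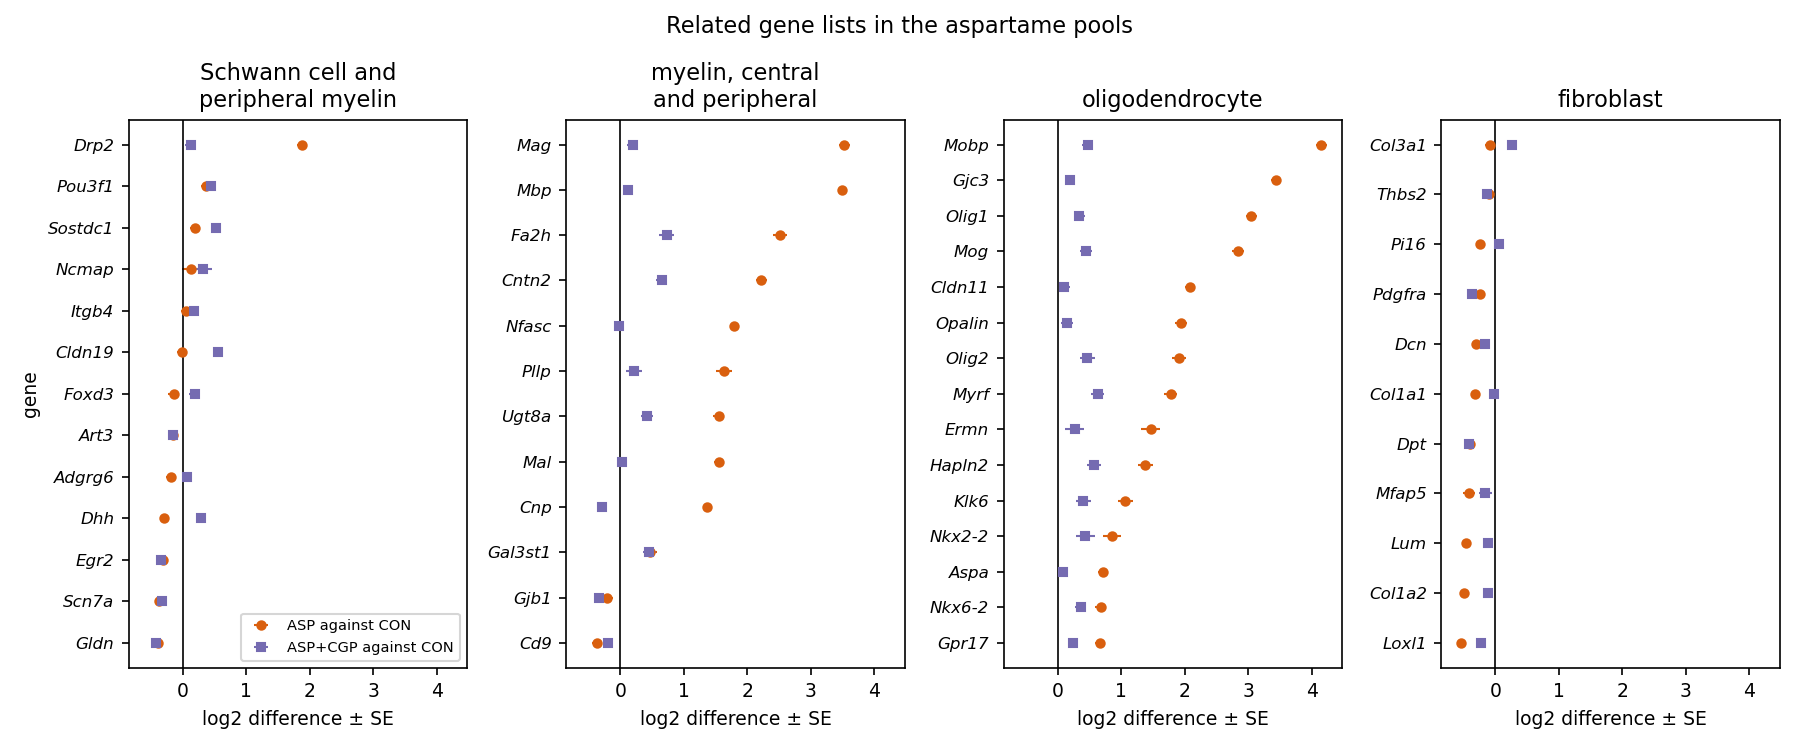
Log2 difference from CON with its standard error (horizontal axis) for every tested gene (vertical axis) of 4 lists, in ASP (circles) and ASP+CGP (squares). In ASP the oligodendrocyte genes, from 0.66 (Gpr17) to 4.15 (Mobp), and 9 of 12 shared myelin genes lie to the right by more than 1.4-fold. Drp2 alone does so among the other Schwann cell genes.

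**Figure D4:**
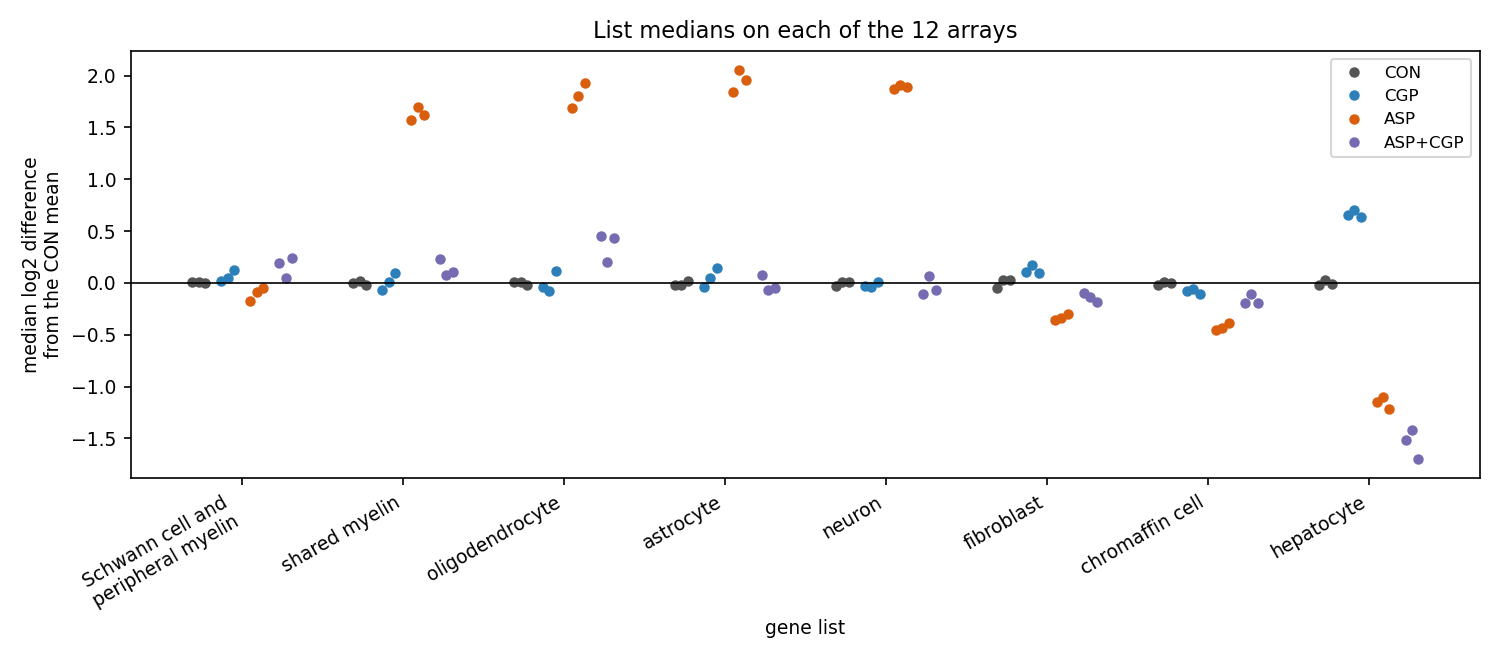
Median log2 difference from the CON mean over the genes of each list (vertical axis) on each of the 12 arrays, by list (horizontal axis), with 1 point per array. The shared myelin, oligodendrocyte, astrocyte and neuron lists lie between 1.57 and 2.05 on the ASP arrays, and the list of other Schwann cell genes between -0.18 and -0.05.

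The genes whose signals over the 12 arrays were most like each of the 5 were then taken by Pearson r, which here rests mostly on 4 pool means and is given as a description. For S100b these were Cbln1, a synapse organiser (r = 0.998), Gap43, a growth cone protein on the neuron list (0.998), and Hcrt, the orexin precursor (0.996). For Sox10 they were Plxnb3, a semaphorin receptor (0.991), Htr2a, a serotonin receptor (0.987), and Cckbr, a cholecystokinin receptor (0.986). Those of Pmp22 were Nfx1 (0.993), Isg20 (0.99) and the basement membrane collagen gene Col4a2 (0.99). Erbb3 was most like Glud1, a mitochondrial glutamate dehydrogenase (0.982), Dynlrb1 (0.973) and Ckap5 (0.971), and Ngfr was most like Cdx2 (0.972), H2bc9 (0.961) and Ccdc33 (0.95). No gene named here for one of the 5 was named for another.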

How the data were processed

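Total RNA from adrenal pools was hybridised to Affymetrix Mouse Gene ST arrays. The authors deposited log2 signals per probe set, made in Partek by RMA, which corrects background, quantile-normalizes probes and summarises them by median polish (tools per the labels, without versions). All 26533 probe sets reach a signal of 6 on some array. Of these, 17710 were listed with 1 gene, 1077 with several and 7746 with none, and the first kind gave 16244 genes, each taken at its brightest probe set. The filter on dim genes (mean below 6 in all groups) removed 344, and 15900 were tested. Arrays have no counting depth, and their number limits precision.

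A mean per group was fitted over all 12 arrays in R 4.3.3 by limma 3.58.1 (with the package data.table, version 1.17.8), with empirical Bayes moderation and Benjamini-Hochberg adjustment over all genes within each of 5 contrasts. Calls needed an adjusted p under 0.05 and 1.4-fold, as in the study's methods. Where a group mean was under 6, that mean was raised to 6 and the fold is a bound. Errors beside log2 differences are SE (n = 3 arrays per pool). On simulated arrays of 15900 genes for ASP against CON, 58 of 67 genes at 1.5-fold, 67 of 67 at 2-fold and 66 of 66 at 3-fold were recovered, with 0 false calls among 15700. Most genes were left unchanged there, while in the data 55.3% passed the adjusted p in ASP. The simulation gives no measure of variation between mice.

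The 6 genes and the 14 related lists were chosen with earlier results of these data known, so list counts are descriptions. Named list genes are at most 4 per list and comparison by size of difference, or those listed as partners; Nab2, Gal3st1, Gjb1, Cd9, Erbb2, Nrg1, Egr2, Th, Star and the markers under 6 were added for their roles or to complete a count. Genes alike in pattern are the 3 highest by Pearson r, without predicted and small RNA genes. Prx and list genes without a probe set of their own were not analysed here. No genome build is named for the arrays, so only promoter windows carry coordinates. Alternatives covered scaling, the dim filter, moderation, a block for the replicate number, weights per array, which arrays were fitted, the fold minimum, the choice of probe set and leaving out each array. Samples with the same replicate number were not paired by the labels.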

Additional observations from a re-analysis of the deposited data

Results flagged for a closer look

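For 3 of the 5 genes the difference between pools with and without aspartame was not the same with and without CGP 39551. This was read from the interaction term of the limma fit, at an adjusted p under 0.05 and at least 1.4-fold. By the same thresholds the interaction was called positive for 9.02% of all genes tested and negative for 15.5%. It was called negative for 15 of 15 neuron, 12 of 15 oligodendrocyte, 11 of 13 astrocyte and 13 of 13 hepatocyte markers, and positive for 0 of them. Of 11 chromaffin markers, 3 were called positive and 1 negative. The part of these markers in the values of the 3 genes was not tested. S100b had an interaction of -2.18 (limma adjusted p = 9.95e-09): ASP stood 2.57 above CON, while ASP+CGP stood 0.39 above CGP. Sox10 had an interaction of -0.54 (limma adjusted p = 0.000315), with 0.97 for ASP over CON and 0.43 for ASP+CGP over CGP, so both differences were upward. The Sox10 interaction was not called after centring on array medians (-0.48) or quantile normalization (-0.47). Erbb3 had an interaction of -1.02 (limma adjusted p = 6.5e-06), and here the sign turned, from 0.20 for ASP over CON, which was not called, to -0.83 for ASP+CGP under CGP. Each group is 1 pool, so differences between mice were not measured.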

How the results depend on the processing

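Over 27 settings, 506 of 550 differences of the 5 genes kept their direction and their side of the thresholds, 11 lost a call, 22 gained one and 11 changed sign. All changes of sign were in CGP against CON, for genes that were not called there: Sox10 at -0.0073 after centring, and between -0.039 and 0.050 when arrays were left out in turn (below 0 without CON replicate 2 or 3 or CGP replicate 3), and Ngfr at -0.0028 after centring, -0.0054 after cyclic loess, -0.013 after quantile normalization and -0.0065 with array weights, and between -0.057 and 0.082 when arrays were left out in turn (below 0 without CON replicate 1 or CGP replicate 2 or 3). In ASP+CGP against CON, where 1 of the 5 was called, 3 were called after centring, 2 after cyclic loess, 3 after quantile normalization, 5 with no fold minimum and 0 at 1.8-fold, and 1 to 2 when arrays were left out in turn. Erbb3, the gene called lower in the main fit, was not among those called after centring or cyclic loess. Sox10, S100b and Ngfr were called higher after centring, and Sox10 and Ngfr after cyclic loess. In ASP+CGP against ASP, 5 of the 5 were called with no fold minimum and 1 at 1.8-fold, and 2 to 3 when arrays were left out in turn. For the interaction, 5 were called with no fold minimum. Beyond the scaling, left-out arrays and fold minimum, the cause was not tested.

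The median over all genes shifted by 0.11 in ASP and 0.15 in ASP+CGP after cyclic loess and by 0.11 in ASP+CGP after quantile normalization. The share of calls that were higher went from 54.7% to 80.1% in ASP with cyclic loess, and from 42.3% to 70.1%, 57.6% and 54.1% in ASP+CGP with centring, cyclic loess and quantile normalization. It went from 32.9% to 43.3% and 19.2% in ASP+CGP against ASP and from 36.7% to 47.2% and 23.1% for the interaction, with centring and cyclic loess. Of all genes, 2292 were called in ASP+CGP against CON, 1179 after cyclic loess and 1405 after quantile normalization. Calls over the 5 contrasts ran from 260 to 3906, from 479 to 11556 with no fold minimum and from 92 to 1323 at 1.8-fold.

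The labels did not pair the samples by replicate number. Deviations of same-numbered arrays correlated between -0.096 and 0.306, over 0.1 in 6 of 18 pairs. Those of differently numbered arrays correlated between -0.279 and 0.224. Of the 12 arrays, 8 were closest to their own number, so same-numbered arrays tended to be more alike, and the source of this was not tested. With the replicate number as a block, 2, 0, 1, 3 and 3 of the 5 genes were called in the 5 comparisons, and no call changed.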
